A study of Mus musculus with 15 samples.

Results

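Potassium channel subunit genes were followed in the brain of mice after occlusion of the middle cerebral artery (MCAO), a model of ischemic stroke. The members were all genes whose symbol begins with Kcn, followed by letters and a number, and that had at least 1 count in any of the 15 libraries. This rule took 93 of the 18931 genes in the table. The mice were Kunming mice, an outbred stock, and the 5 groups of 3 libraries were sham, vehicle, JA, UA and JU, all labelled as MCAO mice. The labels give no dose, time point, age, sex or brain region. The title of the series concerns jasminoidin with ursodeoxycholic acid, and JU was read here as the combination of JA and UA, which the labels do not state. Whether the replicates were separate animals is not stated, so a p-value covers only the scatter among the libraries themselves, which could be technical.

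Potassium channels let potassium ions leave the cell, which returns neurons to rest after an action potential and sets how easily they fire. Voltage-gated (Kv) channels are tetramers of alpha subunits that open on depolarization, and they carry auxiliary subunits that set their gating and surface number. Inward rectifiers and two-pore-domain channels carry the current at rest, and calcium-activated channels couple potassium efflux to calcium entry. Most members are known as neuronal genes, while Kcnj10 and Kcnj16 are known from astrocytes, Kcnj8 from pericytes, Kcnj13 and Kcne2 from the choroid plexus, and Kcnk13, Kcnk6, Kcnn4 and Kcna3 from microglia or macrophages.

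Promoter sequence was available for 68 members, as 93 windows of 250 bases before a RefSeq transcription start (GRCm38.p6), out of 32851 windows of 27025 genes. Windows are shown for 3 members that were higher in every vehicle library than in every sham library (Kcne1l, Kcnk13 and Kcnn4). They are also shown for 2 members that were lower in every vehicle library (Kcna2 and Kcnd2). These genes serve as examples of each direction, and only Kcne1l passed the test of vehicle against sham given below. The windows lie at chrX:142306199-142306448 (minus strand), chr12:99964249-99964498, chr7:24370013-24370262, chr3:107101317-107101566 and chr6:21215096-21215345 (all plus strand). Each runs 5′ to 3′ and ends at the base before the RefSeq start site. In the GENCODE annotation, Kcna2 and Kcne1l start further upstream. The window of Kcna2 thus lies within that annotated gene, and the window of Kcne1l lies partly within its own. Capitals mark the GC box GGGCGG (on the other strand, CCGCCC) and the E-box CACGTG.
Kcne1l: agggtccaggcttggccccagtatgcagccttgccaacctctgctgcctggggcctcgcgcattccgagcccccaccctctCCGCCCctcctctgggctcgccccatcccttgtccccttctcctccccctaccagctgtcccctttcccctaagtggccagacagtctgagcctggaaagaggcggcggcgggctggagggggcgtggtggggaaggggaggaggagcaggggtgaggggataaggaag
Kcnk13: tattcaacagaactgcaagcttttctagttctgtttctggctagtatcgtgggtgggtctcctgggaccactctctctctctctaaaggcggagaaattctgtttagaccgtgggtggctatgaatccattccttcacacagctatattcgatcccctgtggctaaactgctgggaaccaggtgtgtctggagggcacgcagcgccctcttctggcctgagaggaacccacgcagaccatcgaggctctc
Kcnn4: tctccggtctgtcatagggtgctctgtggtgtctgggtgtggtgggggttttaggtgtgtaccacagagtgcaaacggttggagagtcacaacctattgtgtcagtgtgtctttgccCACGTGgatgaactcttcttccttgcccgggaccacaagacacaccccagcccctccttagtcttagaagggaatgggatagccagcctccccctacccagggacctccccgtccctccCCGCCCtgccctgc
Kcna2: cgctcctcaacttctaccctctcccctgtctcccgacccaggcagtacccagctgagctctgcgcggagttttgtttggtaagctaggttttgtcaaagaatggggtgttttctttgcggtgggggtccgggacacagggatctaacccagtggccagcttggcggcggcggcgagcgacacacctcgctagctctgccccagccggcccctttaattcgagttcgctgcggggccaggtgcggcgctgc
Kcnd2: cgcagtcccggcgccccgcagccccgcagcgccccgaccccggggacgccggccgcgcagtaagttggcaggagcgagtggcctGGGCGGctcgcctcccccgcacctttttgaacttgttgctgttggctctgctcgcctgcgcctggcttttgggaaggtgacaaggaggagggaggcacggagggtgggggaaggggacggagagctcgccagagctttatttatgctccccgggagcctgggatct

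The window of Kcnd2 had a GC content of 68.8% and 22 CG dinucleotides, and that of Kcna2 had 62.4% and 18. Of the higher members, Kcne1l had 68% and 9 CG dinucleotides, Kcnk13 52.8% and 8, and Kcnn4 58.8% and 6. The median window of the members had a GC content of 58.8%, against 52.4% over all windows. On either strand, the GC box stood in 45.2% of the member windows and in 32.7% of all windows. The TATA box, searched as TATAAA, stood in 3.23% of the member windows and 12.4% of all windows. The E-box stood in 6.45% and 6.02%, and the cAMP response element TGACGTCA in 0% and 1.55%. A binding motif of PU.1, a transcription factor of myeloid cells, was searched as GAGGAAGT and stood in 0 of 93 member windows and in 2.44% of all windows. None of these 5 motifs contains another, and a match describes letters in the window and not a bound site.

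In sham brain, 67 members had a mean above 1 FPKM (fragments scaled by transcript length and sequencing depth) and 28 were above 10 FPKM. Kcnab2, the Kvβ2 subunit, led at 93.1 ± 4.16 FPKM (SD, n = 3), followed by Kcnip2 (KChIP2, a partner of Kv4 channels) at 58.1 ± 3.36. Kcnj9 (GIRK3, opened by G protein-coupled receptors) stood at 45.9 ± 1.37 FPKM. Kcnab1 and Kcnab3, the other Kvβ subunits, followed at 40.4 ± 1.63 and 31.6 ± 1.77. Next came Kcnf1 (a silent subunit) at 29.3 ± 1.22, Kcnh3 (an ether-a-go-go subunit) at 28.1 ± 2.28 and Kcna1 (Kv1.1, the axonal channel of episodic ataxia) at 27 ± 1.61 FPKM.

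The leading genes of the calcium-activated and two-pore-domain roles were lower. Kcnma1, the pore of the BK channel that opens on voltage and calcium, stood at 19.3 ± 1.16 FPKM, and Kcnk1 (TWIK1, a two-pore-domain channel) at 18.6 ± 1.09. The astrocyte channel Kcnj10 (Kir4.1) stood at 17.1 ± 1.91 FPKM. The genes known from microglia were far down the order, with Kcna3 (Kv1.3) at 3.92 ± 0.519, Kcnk13 (THIK1) at 1.22 ± 0.0304, Kcnk6 (TWIK2) at 0.802 ± 0.161 and Kcnn4 (KCa3.1) at 0.231 ± 0.0559 FPKM. These levels rest on the transcript lengths behind the deposited FPKM. Dividing CPM by FPKM gave a length above 3 times the longest annotated transcript for 13 of 81 members. Over all genes at 1 CPM or more, 3.76% exceeded this limit. The excess was largest for Kcnip4 (68.8 times) and Kcnd2 (19.1 times). The place of these 13 members in the order is therefore uncertain. Whether their counts or their FPKM were off was not tested, and their fold changes given below rest on the counts.

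**Figure D1:**
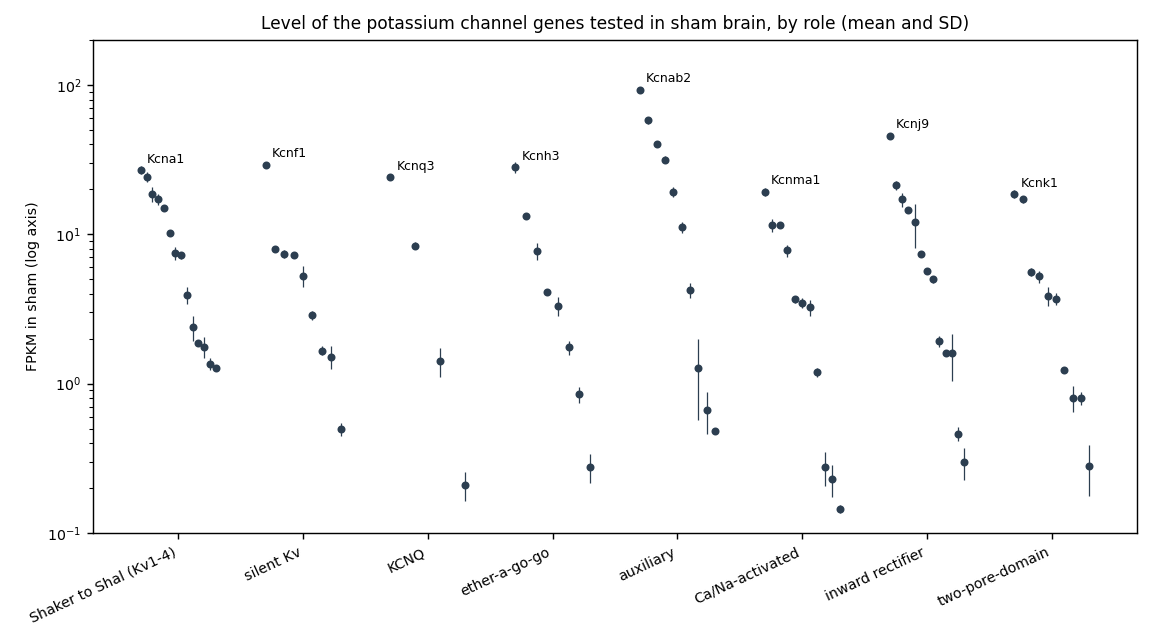
Mean FPKM of 79 of the 81 members tested in the 3 sham libraries (log axis, bars: SD), grouped by role and ordered within each role, with the leading gene of those shown named. Kcnab2 is the highest point, and the levels within a role spread widely.

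The 12 members that were not tested had too few counts. They were Kcna7, Kcna10, Kcne1, Kcne3, Kcnj1, Kcnj15, Kcnk7, Kcnk15, Kcnk16, Kcnk18, Kcnmb3 and Kcnv2, and their highest count was 20, in JU replicate 1 for Kcnj15. The other 81 members passed the filter on low counts and entered a fit of 15125 genes.

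Libraries within a group differed, and JU replicate 1 stood apart. Total counts were 18346180 to 20447465 per library. JU replicate 1 was the lowest of the 15 libraries for 58 of 81 members (71.6%, against 29.9% of all genes tested) and the highest for 10 (12.3%, against 34% of all genes). Summed over the 93 members, CPM (counts scaled to a common library total with TMM factors) was 5993 to 6492 in sham, 4137 to 5540.4 in vehicle, 5805 to 6670.0 in JA and 5944 to 6414 in UA. The JU libraries held 3061, 6347 and 5934. The 12 neuron markers summed to 11512 to 11717 in sham and 6949 to 9703 in vehicle, and to 4522 in JU replicate 1. The 12 microglia and macrophage markers summed to 488 to 549 in sham and 2065 to 4821 in vehicle, and to 7152, 612 and 1635 in JU. JA replicate 1 held a sum of 1753 and the other JA libraries 602 and 539. Counts of members at an adjusted p under 0.05 in edgeR, and those at an unadjusted p, are therefore given below with and without JU replicate 1, and for JA the former also without JA replicate 1.

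**Figure D2:**
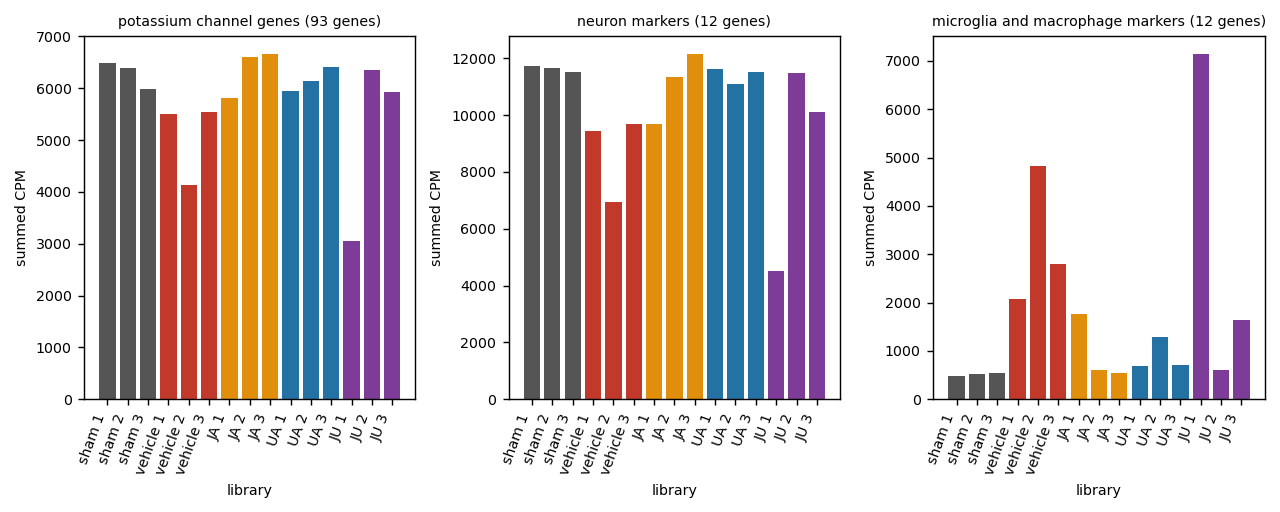
Summed CPM of the 93 potassium channel genes, of 12 neuron markers and of 12 microglia and macrophage markers in each library (bars from 0). JU replicate 1 and vehicle replicate 2 hold the lowest sums of channel genes and of neuron markers, and the highest sums of microglia and macrophage markers.

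Most channel genes had lower values in vehicle than in sham, and 1 passed the test in each direction. Among the 81 tested members, 63 had a negative log2 fold change and the median was -0.24, against 0.00 over all genes tested. At an adjusted p under 0.05 (edgeR's quasi-likelihood test, Benjamini-Hochberg over all genes) 2 members passed, which is 2.47% against 5.02% of all genes. Kcne1l rose and Kcna1 fell, where 0.787% of all genes passed as higher and 4.24% as lower. DESeq2 called 5 at an adjusted p under 0.05 (6.17%, against 16.4%). In edgeR 14 members had an unadjusted p under 0.05 (17.3%, against 29.3% of all genes), or 33 without JU replicate 1 (40.7%, against 45%). Without JU replicate 1, which belongs to neither group but enters the shared estimate of spread, 23 members passed (28.4%, against 33.9% of all genes). Of these, 4 were higher (4.94%, against 17%) and 19 lower (23.5%, against 16.9%). Every vehicle library was below every sham library for 31 members (38.3%, against 24.7% of all genes). Every vehicle library was above every sham library for 7 members (8.64%, against 24.5%). These 7 were Kcna3, Kcne1l, Kcne4, Kcnk6, Kcnk13, Kcnmb1 and Kcnn4.

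The markers moved with these genes. All 12 neuron markers had lower values in vehicle, with a median log2 fold change of -0.44, and so had all 10 striatal projection neuron markers, with a median of -1.04. All 12 microglia and macrophage markers had higher values, with a median of 2.98, and 3 of them passed, against 0 of the neuronal ones. Without JU replicate 1, all 12 of them passed as higher, where 17% of all genes did. In that fit 8 neuron markers and 3 striatal projection neuron markers passed as lower, where 16.9% of all genes did. The median was 0.26 for 10 astrocyte markers, 0.51 for 10 pericyte and endothelial markers, 0.12 for 10 oligodendrocyte markers and 0.16 for 10 choroid plexus markers. Without JU replicate 1, 5 of the pericyte and endothelial markers passed as higher (17% of all genes did), as did 2 of the oligodendrocyte markers. Cspg4 is on both lists. In the same fit 1 astrocyte marker passed as higher and 1 as lower, and 0 choroid plexus markers passed. No marker of any list was at 0 in all libraries. In these whole-tissue samples, fewer cells of a type and less RNA per cell cannot be told apart, and the part of the cell types in the results was not tested.

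**Figure D3:**
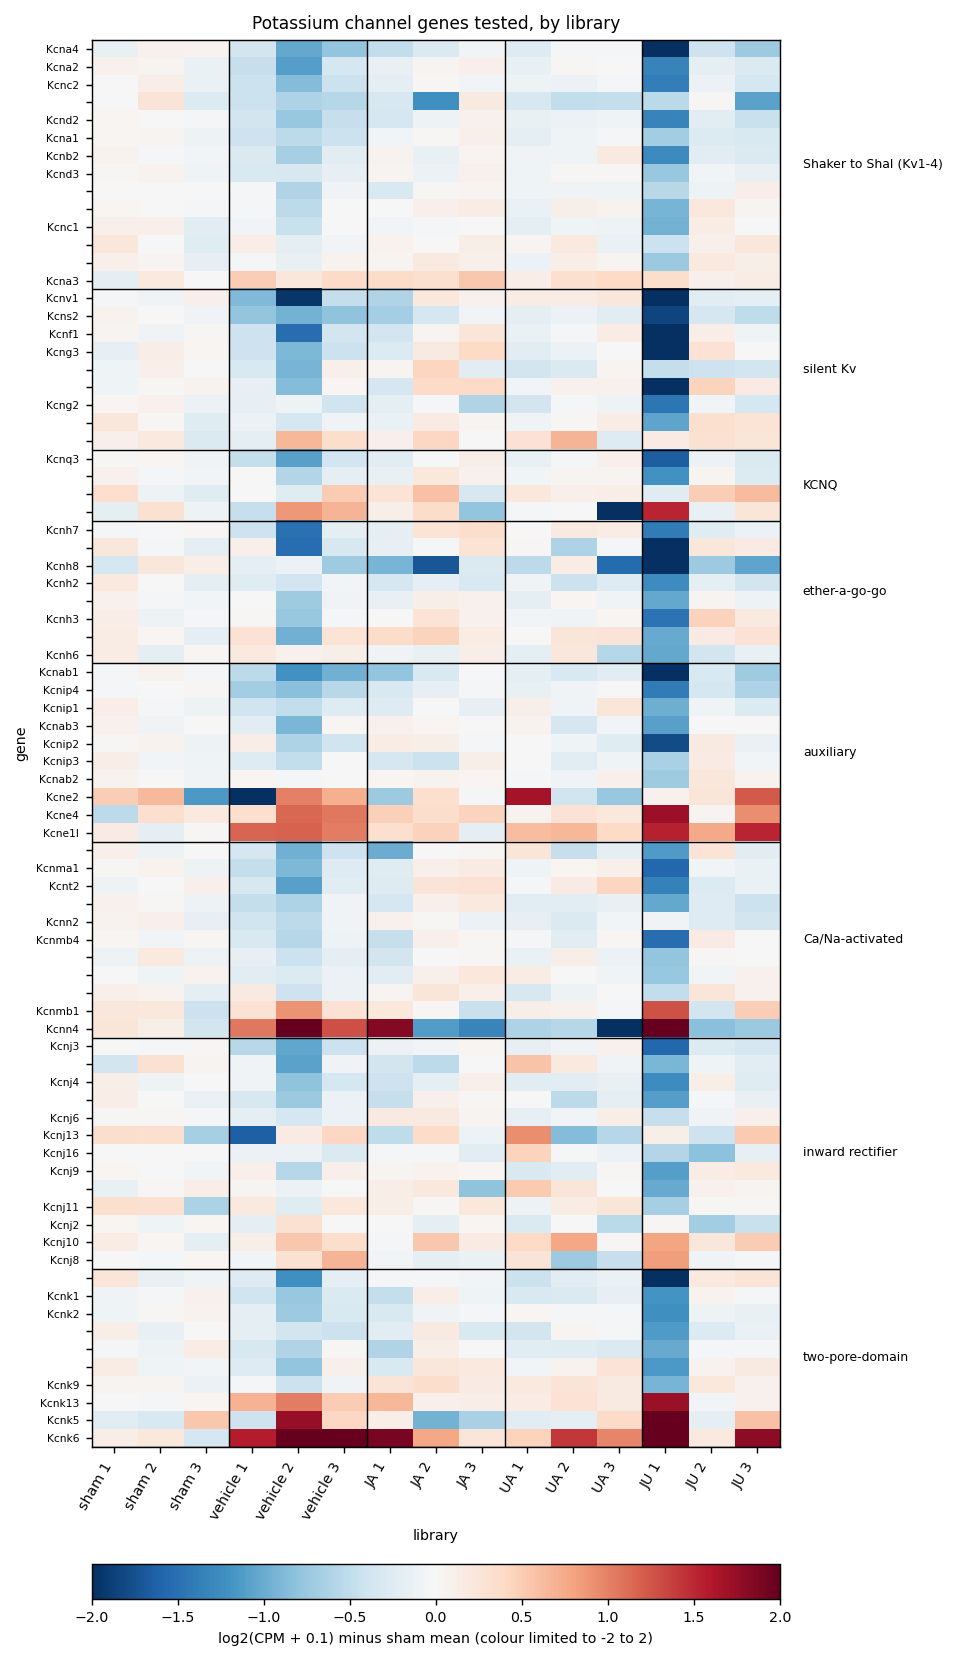
Log2(CPM + 0.1) of 79 of the 81 tested members in each of the 15 libraries, relative to the sham mean, ordered by role, with names for genes described in the text. The columns of JU replicate 1 and vehicle replicate 2 are low for most members, while Kcnk6, Kcnk13, Kcnn4 and Kcne1l are high there.

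Among the Kv1 to Kv4 subunits, which form the delayed rectifier and A-type currents, 14 of 15 tested members were lower in vehicle, with a median of -0.27. Kcna1 (chromosome 6, 126640397 to 126646384, minus strand, GRCm38) held 252, 254 and 228 CPM in the sham libraries and 183, 171 and 182 in the vehicle libraries. The groups did not overlap, and Kcna1 fell by 0.46 ± 0.11 (SE) on the log2 scale (adjusted p = 0.0333, edgeR). The call was lost on leaving out any 1 of the 6 sham and vehicle libraries, with adjusted p from 0.0743 (without vehicle replicate 1) to 0.134 (without vehicle replicate 2), and it stood at 0.00135 without JU replicate 1. Kcna2 (Kv1.2), which assembles with Kv1.1 in axons, held 372, 363 and 321 CPM in sham and 254, 163 and 277 in vehicle. Its groups did not overlap either, vehicle replicate 2 was far below the others, and its log2 fold change was -0.61 ± 0.25 (SE) (adjusted p = 0.142 in edgeR, 0.00978 without JU replicate 1).

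Of the 3 A-type subunits of the Kv4 family, Kcnd2 and Kcnd3 were lower in every vehicle library, while the groups overlapped for the other one. Kcnd2 (Kv4.2, the dendritic A-type channel) held 130.0, 127 and 122 CPM in sham and 97.8, 74.3 and 91.3 in vehicle. Every vehicle library was below sham, at a log2 fold change of -0.53 ± 0.22 (SE) (adjusted p = 0.138 in edgeR, 0.00459 without JU replicate 1). Kcnc2 (Kv3.2, of fast-spiking interneurons) held 114, 126 and 104 CPM in sham and 84.4, 62.3 and 85.1 in vehicle. Its groups did not overlap, at -0.57 ± 0.24 (SE) (adjusted p = 0.145 in edgeR, 0.00378 without JU replicate 1). Kcna4, Kcnb2 and Kcnd3 also passed as lower only without JU replicate 1, at log2 fold changes of -0.72, -0.39 and -0.28. Kcnc1 (Kv3.1), a fast delayed rectifier, was at -0.16 ± 0.22 (SE) (adjusted p = 0.645 in edgeR). Kcna3 alone lay on the other side, with 6.84, 8.86 and 7.67 CPM in sham and 10.9, 9.08 and 10.1 in vehicle. Each vehicle value was above each sham value, and the log2 fold change was 0.36 ± 0.14 (SE) (adjusted p = 0.117 in edgeR, 0.0560 without JU replicate 1).

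Silent Kv subunits form no channel alone and change the gating of Kv2 channels. Of 9 tested, 8 were lower in vehicle, with a median of -0.33. Kcns2 (Kv9.2) held 47.3, 45.3 and 43.1 CPM in sham and 26.2, 23.4 and 25.8 in vehicle. The groups lay far apart with little spread within each, and the log2 fold change was -0.85 ± 0.28 (SE) (adjusted p = 0.0880 in edgeR, 0.00117 without JU replicate 1). Kcnv1 (Kv8.1) held 109, 106 and 119 CPM in sham and 60.3, 28.8 and 79.8 in vehicle. The vehicle libraries were all lower but differed among themselves, with replicate 2 lowest, at -0.98 ± 0.54 (SE) (adjusted p = 0.234 in edgeR, 0.0264 without JU replicate 1). Kcng3 (Kv6.3) also passed as lower without JU replicate 1, at -0.58. Kcnf1 (Kv5.1) held 147, 135 and 144 CPM in sham and 106, 49.3 and 109 in vehicle, and it did not pass (adjusted p = 0.309 in edgeR, 0.0519 without JU replicate 1).

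Of the 5 KCNQ genes, which carry the M-current that holds back repetitive firing, 3 had lower values in vehicle. Kcnq3 held 273, 277 and 257 CPM in sham and 193, 126 and 207 in vehicle. Its groups did not overlap, at a log2 fold change of -0.62 ± 0.30 (SE) (adjusted p = 0.192 in edgeR, 0.00885 without JU replicate 1).

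None of the 8 ether-a-go-go subunits passed in either fit, and 7 were lower with a median of -0.22. Kcnh3 (Kv12.2) held 134, 114 and 119.6 CPM in sham and 124, 72 and 119.8 in vehicle, with only vehicle replicate 2 below the sham range. Kcnh7 (Kv11.3) was lower in all vehicle libraries, with 132, 135 and 138 CPM in sham and 101, 47.9 and 119.7 in vehicle, at -0.59 ± 0.33 (SE) (adjusted p = 0.247 in edgeR, 0.0923 without JU replicate 1).

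The auxiliary subunits lay in both directions, with 6 of 10 lower and a median of -0.25. Kcne1l (also named Kcne5, a single-span membrane subunit; chromosome X, 142304752 to 142306294, minus strand, GRCm38) held 6.84, 5.42 and 6.21 CPM in sham and 13.9, 14.1 and 12.6 in vehicle. Every vehicle library was well above the sham range, and the log2 fold change was 1.13 ± 0.22 (SE) (adjusted p = 0.0159 in edgeR, 0.00273 without JU replicate 1). The adjusted p was 0.0719 without sham replicate 2, 0.0878 without sham replicate 3 and 0.0750 without vehicle replicate 2, and it stayed past the threshold on leaving out each of the other 3 libraries of these groups. Kcne4, of the same family, held 1.11, 2.08 and 1.88 CPM in sham and 2.1, 3.73 and 3.49 in vehicle. The vehicle values were higher by a narrow margin, at 0.88 ± 0.39 (SE) (adjusted p = 0.158 in edgeR, 0.0481 without JU replicate 1).

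Partners of Kv4 and Kv1 channels inside the cell were mostly lower. Kcnip4 (KChIP4) held 78.5, 79.8 and 81.2 CPM in sham and 49.2, 44.5 and 54.2 in vehicle. The groups were clearly separate, at -0.69 ± 0.19 (SE) (adjusted p = 0.0577 in edgeR, 9.43e-04 without JU replicate 1). Kcnab1 (Kvβ1, which gives Kv1 channels fast inactivation) held 185, 196 and 183 CPM in sham and 131, 81.2 and 96.5 in vehicle. All vehicle values were lower, at -0.87 ± 0.34 (SE) (adjusted p = 0.121 in edgeR, 0.00687 without JU replicate 1). Kcnip1 (KChIP1) passed as lower without JU replicate 1 as well, at -0.39. The most abundant member, Kcnab2, held 481, 463 and 438 CPM in sham and 474, 454 and 463 in vehicle, with overlapping groups and a log2 fold change of 0.01 ± 0.18 (SE), whose sign differed between settings. Kcnip2 and Kcnip3 did not pass either, at -0.26 and -0.23.

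Of 11 calcium- and sodium-activated subunits, 9 were lower in vehicle, with a median of -0.31. Kcnma1 held 349, 362 and 321 CPM in sham and 247, 184 and 288 in vehicle. Its groups did not overlap, at -0.52 ± 0.30 (SE) (adjusted p = 0.260 in edgeR, 0.0135 without JU replicate 1). Kcnn2 (SK2, of the afterhyperpolarization) held 33.4, 34.1 and 28.6 CPM in sham and 24.1, 22.1 and 30.5 in vehicle. These ranges overlapped, and the log2 fold change was -0.32 ± 0.13 (SE) (adjusted p = 0.127 in edgeR, 0.0439 without JU replicate 1). Kcnmb4, the neuronal BK subunit β4, was at -0.31 and did not pass. Kcnn4 lay on the other side, with 0.684, 0.625 and 0.417 CPM in sham and 1.28, 4.27 and 1.53 in vehicle. Each vehicle library was higher, replicate 2 most, at 2.02 ± 1.27 (SE) (adjusted p = 0.299 in edgeR, 0.0780 without JU replicate 1).

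Among the inward rectifiers, 9 of 13 had lower values in vehicle, with a median of -0.17. Kcnj3 (GIRK1) held 165, 162 and 167 CPM in sham and 112, 79.6 and 122 in vehicle. It was the only one of 13 to pass without JU replicate 1, at -0.66 (adjusted p = 0.128 with that library and 0.00284 without, edgeR). An annotated transcript on the other strand covers 31.1% of its exonic bases, and the strand setting of the counting is not given in the sources used here. Its partner Kcnj9 (GIRK3) was at -0.09. The astrocyte gene Kcnj10 (Kir4.1, which clears potassium from around neurons) held 65.8, 60.7 and 52.4 CPM in sham and 64.3, 86.1 and 76 in vehicle. The groups overlapped, at 0.34 ± 0.20 (SE) (adjusted p = 0.281, edgeR). Kcnj16 (Kir5.1), its partner in the same cells, was lower in every vehicle library, with 31.9, 32.3 and 31.9 CPM in sham and 29.7, 29.7 and 26.2 in vehicle, and did not pass (adjusted p = 0.516, edgeR), and its fold change was positive with the GC correction described below. Kcnj2 and Kcnj4 (Kir2.1 and Kir2.3) were at 0.05 and -0.38, and the pericyte gene Kcnj8 (Kir6.1) was at 0.34.

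Kcnj13 (Kir7.1) and Kcne2, both known from the choroid plexus, varied by library rather than by group. Kcnj13 held 12.3, 11.9 and 6 CPM in sham and 3.02, 10.8 and 12.9 in vehicle, and Kcne2 held 2.84, 3.18 and 0.834 and 0, 4.07 and 3.3. Vehicle replicate 1 was low for both, and there the 10 choroid plexus markers summed to 27 CPM, against 1219 and 1115 in the other vehicle libraries. Exons of Gigyf2 on the other strand cover 49.1% of the exonic bases of Kcnj13.

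The two-pore-domain channels carry leak current, and 7 of 10 tested had lower values in vehicle, with a median of -0.27. Kcnk1 held 97.8, 101 and 109 CPM in sham and 77.7, 60.7 and 84.1 in vehicle. Kcnk2 (TREK1, a stretch- and lipid-gated channel) held 67.2, 72.3 and 74.7 and 62.3, 42.9 and 57.5. Both were lower in every vehicle library and passed only without JU replicate 1, at -0.47 (adjusted p = 0.0215, edgeR) and -0.40 (adjusted p = 0.0171). Kcnk9 (TASK3) was at -0.17 and did not pass in either fit.

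Kcnk6 and Kcnk13 lay in the opposite direction. Kcnk6 held 3.58, 3.8 and 2.56 CPM in sham and 9.88, 25.4 and 15.6 in vehicle. Every vehicle library was more than 2 times the highest sham value, and the log2 fold change was 2.36 ± 0.68 (SE) (adjusted p = 0.0637 in edgeR, 0.00772 without JU replicate 1). Kcnk13 held 7.53, 7.35 and 7.72 CPM in sham and 12.2, 15.5 and 10.8 in vehicle. The sham values were nearly equal and all vehicle values were above them, at 0.77 ± 0.38 (SE) (adjusted p = 0.200 in edgeR, 0.00602 without JU replicate 1). For both genes and for Kcnn4, vehicle replicate 2 was the highest vehicle library, as it was for the summed microglia and macrophage markers (2065, 4821 and 2791 CPM). For Kcna3, also known from microglia or macrophages, vehicle replicate 2 was the lowest vehicle library.

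GC content moved with the contrast over all genes. The median log2 fold change of all genes was -0.14 below the median GC content of the genes tested and 0.12 above it. For the members it was -0.37 below (34 members) and -0.20 above (47 members), so the members were lower on both sides. With a correction for GC content the medians of the members were -0.22 and -0.30, against 0.03 for all genes on either side. With that correction 0 members passed (0.00661% of all genes), and 6 had an unadjusted p under 0.05 (7.41%, against 19.6%). With the correction and without JU replicate 1, 3 passed as higher (3.7%, against 15.2% of all genes) and 20 as lower (24.7%, against 9.16%).

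**Figure D4:**
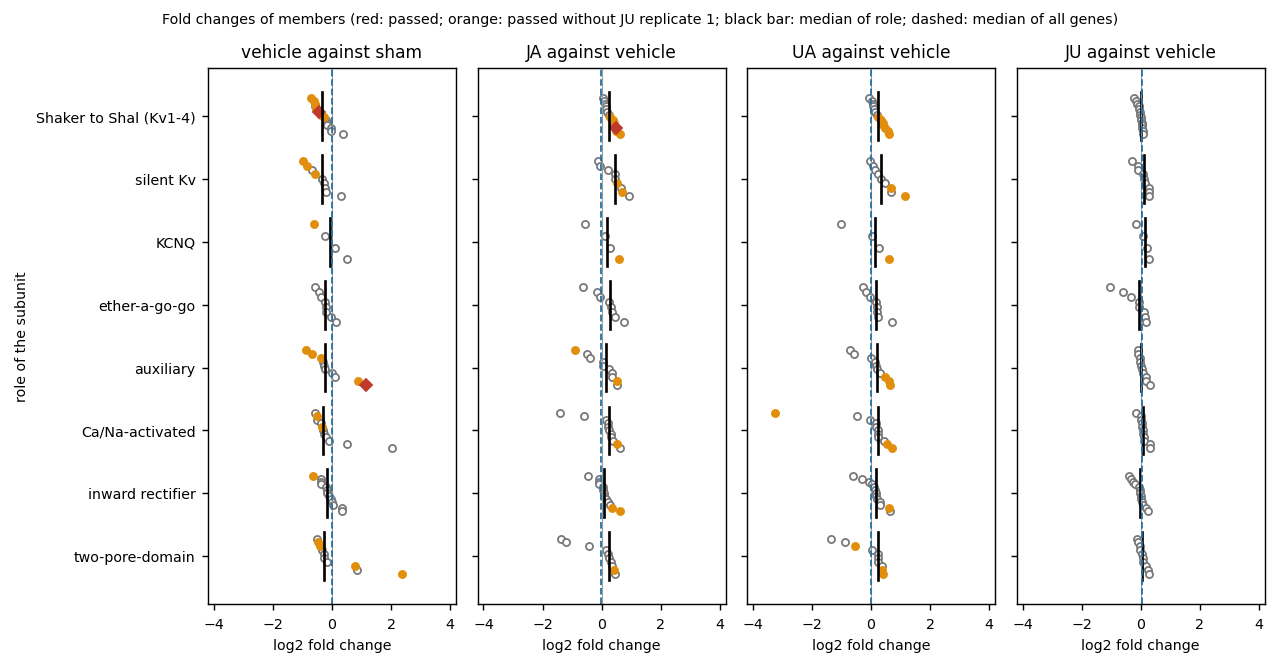
Log2 fold change of 79 of the 81 members tested between vehicle and sham and between each treated group and vehicle, by role, with red for members that passed and orange for those that passed only without JU replicate 1, black bars for the medians of those shown and a dashed line for the median of all genes. Most points lie below 0 in vehicle against sham and above 0 in JA and UA against vehicle, and those of JU spread on both sides of 0.

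Genes that work with potassium channels lay on the same side. Of 13 tested partners, such as Lgi1 and Adam22 (which cluster Kv1 channels at synapses and axons) and Dpp10 (an auxiliary subunit of Kv4), 12 were lower in vehicle, with a median of -0.25. None passed, and 5 passed as lower without JU replicate 1, namely Dpp10, Lrrc55, Lgi1, Adam22 and Dlg2, where 16.9% of all genes passed as lower. Of 15 genes of potassium transport and HCN channels, 10 were lower, with a median of -0.16. Here 0 passed, and in the fit without JU replicate 1 there were 2 higher and 4 lower (against 17% and 16.9% of all genes), among them Atp1b1, Slc12a4, Slc12a7 and Hcn4.

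The JA, UA and JU comparisons share the vehicle libraries with each other and with the comparison of vehicle and sham, so their values are given side by side. In JA against vehicle, 63 of 81 members were higher, with a median of 0.24, against -0.01 over all genes. 1 member passed (1.23%, against 1.56% of all genes), and 8 had an unadjusted p under 0.05 (9.88%, against 18.8%), or 34 without JU replicate 1 (42%, against 36.5%). DESeq2 called 2 (2.47%, against 6.49%). Every JA library was above every vehicle library for 18 members (22.2%, against 17.6% of all genes) and below for Kcne1l, Kcnj8 and Kcnmb1 (3.7%, against 15.7%). Without JU replicate 1, 14 members passed as higher (17.3%, against 11.3% of all genes) and 1 as lower (1.23%, against 7.76%). Without JA replicate 1 too, 24 passed as higher (29.6%, against 13.5%) and 5 as lower (6.17%, against 14.8%). With a correction for GC content 0 passed, with or without JU replicate 1 (0% and 0.00656% of all genes).

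Kcna1 was the member that passed in JA, as higher, with 235, 247 and 263 CPM. All 3 values were above the vehicle values and within or near the sham range, at 0.48 ± 0.11 (SE) (adjusted p = 0.0494 in edgeR, 0.00331 without JU replicate 1). The call was lost on leaving out any 1 of the 6 JA and vehicle libraries, with adjusted p from 0.0778 (without JA replicate 1) to 0.212 (without JA replicate 3). Kcne1l stood at 7.7, 8.48 and 5.41 CPM in JA, all below the vehicle values, at -0.91 ± 0.22 (SE) (adjusted p = 0.0564 in edgeR, 0.0132 without JU replicate 1). Kcnip4 held 64.9, 71.1 and 78.4 CPM, Kcna2 held 317, 365 and 375 and Kcnj3 held 152, 159 and 169. Each was above all vehicle libraries, and each passed only without JU replicate 1 (adjusted p = 0.00569, 0.0196 and 0.00821, edgeR).

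Kcnj6 (GIRK2) held 145, 146 and 133 CPM in JA, against 112, 101 and 119 in vehicle, and passed only without JU replicate 1, at 0.36 (adjusted p = 0.0159, edgeR). Kcnn2, Kcnh7, Kcnk5 and Kcnt2 followed by p and passed in neither fit, at 0.32, 0.75, -1.36 and 0.61. JA replicate 1 differed from the other JA libraries at 3 of the 4 genes known from microglia or macrophages. Kcnk6 held 12.4, 5.65 and 3.87 CPM, Kcnk13 12, 8.12 and 8.23 and Kcnn4 2.27, 0.206 and 0.166, with replicate 1 highest each time, while Kcna3 held 10.1, 9.72 and 11.3, with replicate 1 between the others. The silent subunit Kcns2 was lowest there, at 28.2, 35.9 and 43.6 CPM.

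In UA against vehicle, 63 members were higher, with a median of 0.19, against -0.01 over all genes. By edgeR 0 members passed (against 3.47% of all genes), and 9 had an unadjusted p under 0.05 (11.1%, against 24.3%), or 29 without JU replicate 1 (35.8%, against 41.5%). DESeq2 called 2, both higher (2.47%, against 7.44%). Without JU replicate 1, 18 passed as higher (22.2%, against 14.8% of all genes) and 2 as lower (2.47%, against 13.4%). Every UA library was above every vehicle library for 24 members (29.6%, against 21.7% of all genes). It was below for 6 (7.41%, against 22.2%), namely Kcne1l, Kcne4, Kcnk6, Kcnk13, Kcnmb1 and Kcnn4.

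Kcnip4 had the smallest p in UA, with 71.8, 75.7 and 80.1 CPM, all above vehicle, of which 1 lay in the sham range and 2 below it. Its log2 fold change was 0.62 ± 0.19 (SE) (adjusted p = 0.0994 in edgeR, 0.00200 without JU replicate 1). Kcna1 held 214, 229.7 and 237 CPM, at 0.35 ± 0.11 (SE) (adjusted p = 0.0995 in edgeR, 0.00541 without JU replicate 1). Kcne1l held 9.4, 9.73 and 8.09 CPM, between the sham and the vehicle values, at -0.58 ± 0.21 (SE) (adjusted p = 0.148 in edgeR, 0.0513 without JU replicate 1). Of the 9 silent subunits, Kcns2 and Kcnv1 are given here. Kcns2 held 39.5, 41.5 and 39.1 CPM and Kcnv1 held 123, 124 and 129.6, which for Kcnv1 was above every sham library too. Kcns2 and Kcnv1 passed only without JU replicate 1, at 0.68 (adjusted p = 0.00398, edgeR) and 1.16 (adjusted p = 0.0180).

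Kcnip1, Kcnj3, Kcnt2 (a sodium-activated channel) and Kcna2 were at 0.48, 0.61, 0.69 and 0.57 in UA against vehicle, and each passed only without JU replicate 1. Kcnn4 held 0.332, 0.346 and 0.0512 CPM, below every vehicle and every sham library, and in replicate 3 this was under 3 counts. Its log2 fold change was -3.25 ± 1.39 (SE) (adjusted p = 0.184 in edgeR, 0.0229 without JU replicate 1). Kcnk13 held 8.35, 9.23 and 8.5 CPM and passed as lower without JU replicate 1, at -0.55 (adjusted p = 0.0297, edgeR). The microglia and macrophage markers summed to 694 to 1289 CPM in UA and 2065 to 4821 in vehicle, and all 12 were lower. All 12 neuron markers were higher, summing to 11094 to 11642 CPM. In JA the directions were the same for all 12 of each list, and their part in the results was not tested.

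**Figure D5:**
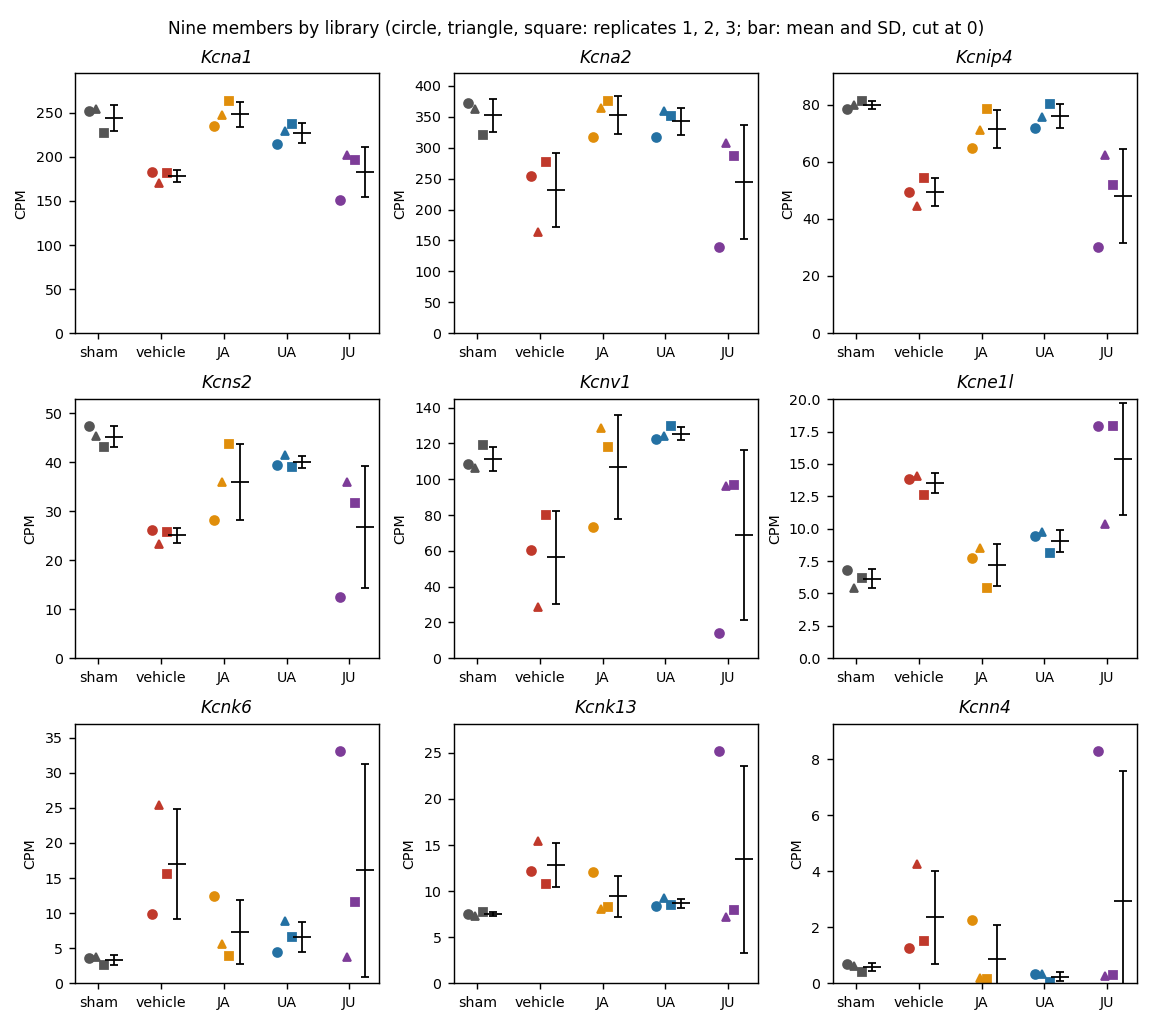
CPM of 9 members in each library, with replicates 1, 2 and 3 as circle, triangle and square and bars for the group mean and SD. In vehicle Kcna1, Kcna2, Kcnip4, Kcns2 and Kcnv1 lie below sham and Kcne1l, Kcnk6, Kcnk13 and Kcnn4 above it, and JU replicate 1 lies apart from the other JU libraries for most.

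In JU against vehicle the groups overlapped for all but 2 members. The median was 0.03, 0 members passed by edgeR or DESeq2 (0% of all genes in edgeR), and only Kcnh6 had an unadjusted p under 0.05 (1.23%, against 1.98%). Kcnh6 (Kv11.2) held 2.42, 3.88 and 4.54 CPM in JU and 5.73, 5.3 and 5.45 in vehicle. All JU values were lower, as they were for Kcnh8 (0.154, 0.710 and 0.542 against 1.07, 1.13 and 0.717 CPM). These were the 2 members without overlap (2.47%, against 1.88% of all genes), and 0 lay above (2.35% of all genes). Without JU replicate 1 the median became 0.23 and still 0 members passed (0.00656% of all genes), with 23 at an unadjusted p under 0.05 (28.4%, against 22.1%).

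The spread within JU was wide. Kcnv1 held 14.1, 96.1 and 96.8 CPM, Kcna2 139.5, 308 and 287 and Kcns2 12.6, 36 and 31.8. Replicate 1 was below every vehicle library for each, while replicates 2 and 3 were above every one. Kcnk6 held 33, 3.77 and 11.5 CPM, Kcnk13 25.2, 7.21 and 7.99 and Kcnn4 8.28, 0.273 and 0.296. Replicate 1 was above every other library for these 3, and replicate 2 was at or below the highest sham value. Among the other members with the smallest p in this comparison, Kcnj2, Kcnj16, Kcnh2 (the hERG channel), Kcna3, Kcng2 and Kcnj11 (Kir6.2, of the ATP-sensitive channel) were lower and Kcne1l and Kcnj10 higher, and the adjusted p was 1 for each (edgeR). Kcng2 was higher without JU replicate 1.

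Kcne1l in JU was at 17.9, 10.4 and 17.9 CPM. All 3 values were above every JA and every UA library, and no other member was higher without overlap in JU against either group (background 6.39% against JA and 9.77% against UA). The log2 fold change was 1.10 ± 0.22 (SE) against JA (adjusted p = 0.0823, edgeR) and 0.76 ± 0.21 (SE) against UA (adjusted p = 0.0902). Without JU replicate 1 the adjusted p was 0.0921 and 0.167. Kcna1 was on the other side, at 151, 202 and 197 CPM, below every JA and UA library. Its log2 fold change was -0.44 ± 0.11 (SE) against JA and -0.31 ± 0.11 (SE) against UA (adjusted p = 0.112 and 0.130, edgeR). In all, 8 members were lower without overlap in JU than in JA (9.88%, against 10.6% of all genes) and 16 lower than in UA (19.8%, against 13.9%).

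DESeq2 called 2 members in JU against JA at an adjusted p under 0.05 (2.47%, against 4.18% of all genes). It called 3 in JU against UA (3.7%, against 10.7%). By edgeR 0 members passed in JU against JA (0% of all genes). There 10 had an unadjusted p under 0.05 (12.3%, against 20.3% of all genes), or 5 without JU replicate 1 (6.17%, against 13.3%). In JU against UA 0 passed by edgeR as well (1.08% of all genes). There 12 had an unadjusted p under 0.05 (14.8%, against 27.3%), or 6 without JU replicate 1 (7.41%, against 16.7%). Without JU replicate 2, 9 members passed against UA (11%, against 20% of all genes), and without JU replicate 1, 0 passed against JA (0% of all genes) or UA (0.623%).

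The departure of JU from additivity asks whether the difference of JU from vehicle equals the sum of those of JA and UA on the log2 scale. By edgeR 6 members passed (7.41%, against 20.8% of all genes). Without JU replicate 1, 16 passed (19.8%, against 19.5%), and without JU replicate 2, 25 passed (30.5%, against 36.1%). Kcne1l was higher in JU than the sum, by 1.67 ± 0.30 (SE) (adjusted p = 0.00593, and 0.00471 without JU replicate 1). Kcna1 was lower than the sum, at -0.79 ± 0.15 (SE) (adjusted p = 0.00768, and 0.00169 without JU replicate 1). Kcnip4, Kcnt2, Kcnj3 and Kcna2 were also lower than the sum, at -1.19, -1.30, -1.18 and -1.09. All 6 also passed without JU replicate 1. JA and UA each lay on the sham side of vehicle for these 6 genes, and the sum of both reached past the sham level. The contrast includes the vehicle libraries, so a difference from vehicle shared by JA, UA and JU also moves it. With a correction for GC content 0 members passed (0.0132% of all genes).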

How the data were processed

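Brain messenger RNA was measured in 15 libraries of 5 groups. The deposited table gives whole-number read counts per gene, which the authors left unnormalized per the file headers, and FPKM values, which the authors computed per the file headers. Tools listed in the submitters' processing notes are Trimmomatic, HISAT2, Cufflinks and DESeq, without version or role, and the build is GRCm38 (mm10). The counter, its strand setting and the annotation it used are not named there. The libraries were made with a stranded kit per the labels' protocols. Annotated exons of 28 members overlap those of another annotated gene, mostly on the other strand. 1 count column matched no sample label and was not used.

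Counts were tested with edgeR 4.0.16 in R 4.3.3, as 1 quasi-likelihood fit of all 15 libraries with a term per group, TMM factors (0.975 to 1.03) and a filterByExpr filter, which left 15125 genes. With 10 residual degrees of freedom, the biological coefficient of variation came to 27.1%. SE is the fold change over the root of the F statistic, and p-values were adjusted by Benjamini-Hochberg over all genes in each contrast. A count of 3 was taken as the floor of detection, for counting error only. No 2 replicates of a group agreed within sampling noise, as the lowest chi-square per degree of freedom between replicates was 5.02. The procedure was also tested on simulated data. For the contrast of vehicle and sham, with 200 of 15043 genes changed, it recovered 52% of 2-fold and 87% of 4-fold changes, with 5 false among 144 calls. The simulated counts were drawn independently, and no simulated library stood apart as JU replicate 1 did. These rates therefore need not hold for the real libraries.

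Members and lists (8 roles, channel partners, potassium transport with HCN channels, and 7 sets of cell type markers) were chosen with earlier results of these data known. Named genes were members that passed at a mean CPM of 1 or more, or failing that the 10 with the smallest p in each of the 4 contrasts with sham or vehicle, and genes chosen for their role. Genes passing without JU replicate 1, without overlap or in the additivity contrast were named after their values were seen. Alternatives were DESeq2 1.42.0, limma 3.58.1 on log2(FPKM + 0.1), no filter, library totals and only the groups compared. Others were a lowess correction for transcript GC content (span 0.3), a replicate block and libraries left out. Each library was left out only of the contrasts with its group, but JU replicate 1 of every contrast. The labels give no meaning to the shared replicate numbers. Same-numbered JA and JU libraries deviated together (correlations of 0.387 to 0.701), so the block was also run on these groups alone. Deviations are taken from the group mean, so these correlations are not independent. JA replicate 1 and JU replicate 1 each stood apart from their group, so the correlations cannot show pairing by number. Coordinates, exon overlaps and GC content come from GENCODE for GRCm38, which matched 97.8% of genes and all 93 members. Some genes are not reported here.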

Additional observations from a re-analysis of the deposited data

How the results depend on the processing

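Counts of members past the threshold changed with the setting. For vehicle against sham (2 members), there were 5 with DESeq2, 16 with only the groups compared, 1 with library totals and 0 with a correction for GC content (16.4%, 25.5%, 3.62% and 0.00661% of all genes). Leaving out 1 sham or vehicle library gave 0 to 1 (0% to 2.38% of all genes). Leaving out JU replicate 1, the only library tried from outside the groups compared, gave 23 (33.9%). For JA against vehicle (1 member), there were 2 with DESeq2 (6.49% of all genes), and 0 with no filter, library totals, only the groups compared, limma on FPKM or the GC correction (0% to 0.517%). Leaving out 1 JA or vehicle library gave 0 (0% to 0.15%), and leaving out JU replicate 1 gave 15 (19%). For UA against vehicle (0 members), there were 2 with DESeq2 and 10 with only the groups compared (10.3% and 14.6% of all genes). Leaving out 1 UA or vehicle library gave 0 (0% to 1.43%), and leaving out JU replicate 1 gave 20 (28.2%). JU against vehicle gave 0 under every setting run (at most 0.0132% of all genes). JU against JA and against UA (0 members each) gave 2 and 3 with DESeq2 (4.18% and 10.7% of all genes), and leaving out 1 library gave 0 for JA (0%) and 0 to 9 for UA (0% to 20%). The departure from additivity (6 members) gave 18 with DESeq2, 3 with only the groups compared and 0 with the GC correction (31.4%, 7.02% and 0.0132% of all genes), and leaving out 1 library gave 3 to 25 (6.35% to 36.1%), the highest without JU replicate 2.

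Alternatives chosen after seeing the data left out JU replicate 1 with the GC correction, which gave 23 members for vehicle against sham, 0 for JA, 9 for UA and 1 for additivity (24.3%, 0.00656%, 11.3% and 0.558% of all genes), or JU replicate 1 with JA replicate 1, which gave 24, 29, 22 and 19 (35.9%, 28.2%, 31.1% and 27%). With the replicate number as a block, there was 1 member for vehicle against sham, 0 for JA, UA and JU, 0 for JU against JA and UA, and 4 for additivity (2.53% of all genes for vehicle against sham, 0%, 1.26% and 0% for JA, UA and JU, 0% for JU against JA and UA, and 13.1% for additivity). With the replicate block and the GC correction there were 0 for each (0% of all genes). Every same-numbered pair of JA and JU libraries had a correlation of deviations above 0.1, and a block on these 2 groups alone, chosen after seeing the data, also gave 0 members for JU against JA (0% of all genes), with 7 of 80 at an unadjusted p under 0.05. No other 2 groups had a correlation above 0.1 at every number. The values for JA and JU are not independent of each other, as deviations are taken from the group mean, so they cannot show pairing by number. Over all groups, 7 of 30 same-numbered pairs had a correlation of deviations above 0.1 (range -0.726 to 0.701), and 5 of 15 libraries correlated best with their own number.

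Of 62 results for named genes, 1041 values under alternatives held 889 with the same direction and side of the threshold, 105 newly past it, 29 no longer past it and 18 of opposite sign. The sign turned in vehicle against sham for Kcnab2 without a filter (-0.0059), with the GC correction (-0.1269), with it and the replicate block (-0.1265) and with it and without JU replicate 1 (-0.1344), for Kcnj16 in the last 3 settings (0.0614, 0.0617 and 0.0545) and for Kcne2 with limma on FPKM (-0.6187). Leaving out 1 library gave a range across 0 for Kcnab2 (-0.0289 to 0.0325, without sham replicate 3 or vehicle replicate 1), Kcnj2 (-0.104 to 0.1427, without sham replicate 2 or vehicle replicate 2), Kcnj13 (-0.552 to 0.2235, without vehicle replicate 1) and Kcne2 (-0.4696 to 0.6786, without sham replicate 3 or vehicle replicate 2 or 3), and in JU against vehicle for Kcng2 (-0.5845 to 0.0235, without JU replicate 1, and 0.0268 without JA replicate 1 too). The cause of these changes was not tested.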
